A study of Homo sapiens with 6 samples.

Results

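The S100 fused-type family is the set of 7 genes CRNN, FLG, FLG2, HRNR, RPTN, TCHH and TCHHL1. Members were found by symbol through the Ensembl identifier without its version, and all 7 were among the 57820 identifiers of the count table. The study asked what changes in the RNA of Cal27 cells, an established line from a human squamous carcinoma of the tongue, when cornulin (the product of CRNN) is overexpressed. The CRNN group received lentiviral particles with a CRNN overexpression construct, and the GFP group received particles with a GFP control vector. Per the labels, both were transduced in 8 µg/ml polybrene and harvested after 48 h. The third group was untreated, is labelled WT, and has neither a harvest time nor polybrene in its labels, so that comparisons with it cannot tell transduction apart from these. Each group had 2 biological replicates, all were grown in DMEM with 10% fetal bovine serum, and all 6 libraries carry the batch label 1. The labels name neither the promoter that drives the insert nor a selection of transduced cells, and the work rests on 1 line.

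S100 fused-type proteins join a calcium-binding S100 domain at the amino end to a long tail of repeats. They are made late in the differentiation of stratified epithelia, where transglutaminases cross-link them to keratin filaments and to the cornified envelope beneath the cell membrane. Filaggrin, released from the FLG product, packs keratin filaments in the outer epidermis. Cornulin is best known from the inner linings of the mouth, oesophagus and cervix, and it is often reported as lost in squamous carcinomas. The genes lie side by side in the epidermal differentiation complex.

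In GENCODE 44 (GRCh38) the 7 genes lay on the minus strand of chromosome 1, in the order TCHHL1, TCHH, RPTN, HRNR, FLG, FLG2 and CRNN, from 152084141 to 152414263. Each had 3 exon blocks. The promoter of CRNN is shown because it is the start of the chromosomal copy, whose reads cannot be told apart here from those of the construct. It spans chr1:152414214-152414513 (RefSeq, GRCh38.p14, minus strand), from 250 bases before the start to 50 bases from it. Capitals mark a match to the TATA box (TATAAA) and a match to an AP-1-like motif (TGANTCA).
CRNN: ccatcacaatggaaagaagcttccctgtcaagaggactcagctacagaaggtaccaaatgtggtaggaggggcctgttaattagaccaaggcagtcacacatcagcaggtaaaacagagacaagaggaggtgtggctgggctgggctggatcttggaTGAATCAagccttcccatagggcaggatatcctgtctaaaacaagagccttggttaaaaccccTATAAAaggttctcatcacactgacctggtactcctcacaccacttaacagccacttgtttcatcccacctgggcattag

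The last 50 bases before the start are set side by side for all 7 members, to show how alike the family's core promoters are, with TATAAA in capitals.
CRNN: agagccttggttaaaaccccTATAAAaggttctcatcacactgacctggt
TCHH: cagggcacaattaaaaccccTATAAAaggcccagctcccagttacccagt
RPTN: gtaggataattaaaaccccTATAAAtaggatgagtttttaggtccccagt
HRNR: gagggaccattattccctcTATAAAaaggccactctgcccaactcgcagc
FLG: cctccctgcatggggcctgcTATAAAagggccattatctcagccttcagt
FLG2: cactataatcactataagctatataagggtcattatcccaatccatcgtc
TCHHL1: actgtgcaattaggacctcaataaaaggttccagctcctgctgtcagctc

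CRNN, TCHH and RPTN shared an unbroken run of 16 bases, TTAAAACCCCTATAAA, which 3 of 35116 promoters of the same length held on either strand. Those 3 were the promoters of these genes themselves. In CRNN and TCHH the shared run was 19 bases long. The longest run that CRNN shared with HRNR, FLG, FLG2 or TCHHL1, anywhere in the window, was between 8 and 11 bases. TATAAA was found in 5 of the 7 member promoters, beginning 30 or 31 bases before the start, and in 11.5% of all promoters on either strand. FLG2 and TCHHL1 had no match to these letters in the window. TGANTCA was found in 6 of 7, HRNR being the exception, and in 7.71% of all promoters. Each match read TGAATCA, except TGATTCA in RPTN, so none had C or G at the open base N. The 2 motifs did not overlap in any member. The motifs were chosen after the sequences were seen, and a match is a description of letters, not of binding.

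Library totals ranged from 11817105 counts in GFP replicate 2 to 28041227 in untreated replicate 1. Levels of a gene are in CPM, its counts relative to the library size after TMM scaling, and between genes only as CPM per kb of exon. At these depths 3 counts, taken as the floor, corresponded to between 0.115 and 0.239 CPM. All 8 squamous epithelial markers were present in every library, with KRT5, a basal keratin, between 1902 and 4270 CPM and a summed level between 4077 and 6198 CPM. Summed levels were 3.96 to 9.10 CPM for 6 fibroblast markers, 5.92 to 9.47 CPM for 6 immune markers and 0.881 to 1.66 CPM for 4 melanocyte markers. For 3 endothelial markers they were 8.05 to 53.0 CPM, mostly from CDH5, while KDR was at 0 in 4 of 6 libraries. Untreated replicate 1 stood apart in some markers. KRT17 was at 1771 CPM there and between 67.6 and 182 CPM elsewhere, and CDH5 at 49.9 CPM and between 7.21 and 12.6 CPM elsewhere. KRT14 was lowest in that library, at 64.6 CPM. Across 11532 genes, the level against the mean of all libraries went up with exon length in GFP replicate 2 (rho = 0.37). It went down with GC content in the same library (rho = -0.38) and up with GC content in GFP replicate 1 (rho = 0.63). These are correlations across genes, and genes are no independent replicates of a library.

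CRNN rose with the construct, and it was the 1 of 6 tested family members that passed the test. The 2 libraries with the construct held 21256 and 23062 reads of it (ENSG00000143536.7; chromosome 1, 152409243 to 152414263), or 964 and 1028 CPM. The GFP libraries had 59 and 32 counts, or 3.06 and 2.55 CPM, and the untreated libraries 92 and 52 counts, or 3.51 and 2.08 CPM. Both CRNN libraries lay far above the 4 others, and the ranges of the 2 control groups overlapped. In bulk RNA, a change in the share of cells that carry a transcript and a change in RNA per cell cannot be told apart.

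Group means of CRNN were 996 CPM ± 45.6 (SD, n = 2) with the construct, 2.81 ± 0.361 (SD, n = 2) with GFP and 2.80 ± 1.01 (SD, n = 2) in untreated cells. The log2 fold change was 8.46 over GFP (SE 0.43, adjusted p = 2.24e-04) and 8.47 over untreated cells (SE 0.43, adjusted p = 2.11e-04; edgeR quasi-likelihood test, Benjamini-Hochberg over 16396 genes). Since the construct carries CRNN, this checks the labels. GFP and untreated cells differed by a log2 fold change of 0.011, with a 95% interval from -0.76 to 0.79, and a change within that interval could not be told from none. Without GFP replicate 1 the adjusted p over GFP was 0.0795, and without GFP replicate 2 it was 0.171, at log2 fold changes of 8.60 and 8.34.

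Per kb of exon, and with genes at 0 counts included, CRNN stood near the middle of protein-coding genes without the construct. With the construct it stood near the top. Among 19208 protein-coding genes it ranked 36 and 35 in the CRNN libraries. Its rank was 8233 and 8826 in the GFP libraries and 7900 and 9155 in untreated cells, where between 52.3% and 58.9% of these genes lay lower. Those that lay lower include the genes with no count, between 4466 and 4759 in the GFP and untreated libraries. Among genes with counts alone CRNN thus stood lower. CRNN took 0.0925% and 0.106% of all counts in the CRNN libraries.

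**Figure D1:**
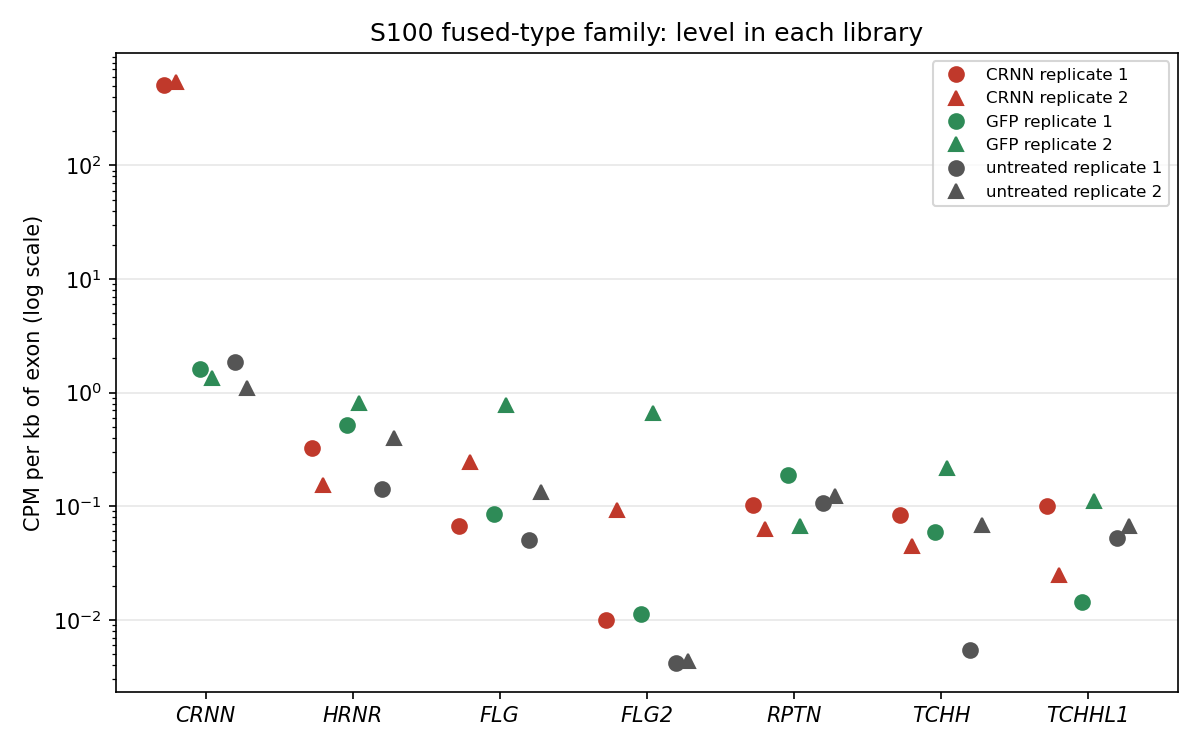
Level of each S100 fused-type gene in each library, as CPM per kb of exon on a log axis; color gives the group and marker shape the replicate. CRNN stands at 507 and 540 CPM per kb in the CRNN libraries, and every other value in the plot lies between 0.00419 and 1.85.

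CRNN held nearly all reads of its family where the construct was present, 99.4% of the family's counts in both CRNN libraries. In GFP replicates 1 and 2 its share was 29.4% (Wilson 95% interval 23.5 to 36.0) and 8.94% (6.40 to 12.3). In untreated replicates 1 and 2 it was 56.8% (49.1 to 64.2) and 23.5% (18.4 to 29.5). These intervals cover counting error only. The other 6 genes together had 119 and 136 counts with the construct, 142 and 326 with the GFP vector, and 70 and 169 without transduction. As summed CPM these were 5.39 and 6.06, then 7.37 and 26.0, then 2.67 and 6.77. The CRNN libraries thus lay within the range of the untreated pair, and GFP replicate 2 stood above all.

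Of the 7 members, 6 passed the filter on low counts and TCHHL1 did not. In CRNN against GFP, 1 of the 6 was called, beside 0.0183% of all tested genes. In CRNN against untreated cells 1 was called as well, beside 0.0061%, and in GFP against untreated cells 0 were called, beside 0%, with 719, 735 and 1137 genes at an unadjusted p under 0.05. Each time the called member was CRNN, which the construct carries. DESeq2 on the same genes called 29 genes in GFP against untreated cells, and no family member with an adjusted p was among them. The 3 comparisons share libraries pairwise, so they are not independent of each other.

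HRNR encodes hornerin, an envelope protein of skin. Its level (ENSG00000197915.5; chromosome 1, 152212076 to 152224193) was 3.13 and 1.47 CPM with the construct, 5.04 and 7.82 CPM with the GFP vector, and 1.38 and 3.84 CPM without transduction. Both GFP libraries lay above the 4 others, and the CRNN and untreated ranges overlapped. The log2 fold change was -1.48 in CRNN against GFP (SE 0.56, unadjusted p = 0.0283, edgeR adjusted p = 0.999) and 1.30 in GFP against untreated cells (SE 0.56, unadjusted p = 0.0457, edgeR adjusted p = 0.711). Neither passed. Against untreated cells the CRNN group was at -0.18 (95% interval -1.45 to 1.09).

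Groups that do not overlap were common with 2 libraries each. HRNR was the 1 of 6 tested members lower in both CRNN libraries than in both GFP libraries, as were 18.7% of tested genes, and CRNN the 1 that was higher, as were 19.4%. HRNR and FLG2 were higher in both GFP libraries than in both untreated ones, as were 16.2% of tested genes. CRNN and FLG2 were higher in both CRNN libraries than in both untreated ones, as were 18.7%, and RPTN was lower, as were 18.4%. For FLG2 these orders rest on 2 counts in GFP replicate 1 and 2 in CRNN replicate 1, against 1 in each untreated library. Those counts all lay under the floor, so whether FLG2 separates the groups cannot be told.

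FLG encodes profilaggrin, the precursor of filaggrin. The gene (ENSG00000143631.10; chromosome 1, 152302165 to 152325239) stood at 0.861 and 3.12 CPM in replicates 1 and 2 of the CRNN cells, 1.09 and 9.98 CPM in those of GFP, and 0.649 and 1.72 CPM in those of untreated cells. GFP replicate 2 stood far above the rest, and in every group the library numbered 2 had more FLG than the one numbered 1. The ratio between the libraries of a group was 9.15 in GFP, 3.62 in CRNN and 2.65 in untreated cells. The 3 groups overlapped in FLG. Its log2 fold change was -1.45 in CRNN against GFP (SE 0.95), 0.75 in CRNN against untreated cells (SE 0.97) and 2.20 in GFP against untreated cells (SE 0.98, edgeR adjusted p = 0.712), and none passed.

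FLG2 encodes filaggrin-2, a relative of filaggrin in the outer epidermis. Its reads (ENSG00000143520.6; chromosome 1, 152348735 to 152360006) numbered 2 and 19 counts in CRNN replicates 1 and 2, 2 and 76 counts in GFP, and 1 and 1 in the untreated pair. Only CRNN replicate 2, at 0.847 CPM, and GFP replicate 2, at 6.07 CPM, lay above the floor of 3 counts, and FLG2 passed the filter through these 2 libraries. They were also the libraries with the most FLG. Its fitted log2 fold changes rest on libraries with 1 or 2 counts and give no size. In GFP against untreated cells the unadjusted p was 0.00890 and the edgeR adjusted p 0.711. With no filter on low counts the adjusted p was 0.00199, the 1 of 213 alternatives run for these 5 genes that passed, and the counts behind it are 2 and 76 in GFP.

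FLG and FLG2 in CRNN against GFP depended on GFP replicate 2. Without that library FLG changed sign, to 0.87. FLG2 changed sign too, but the 1 GFP library left then held 2 counts, so no size is given. After a correction for the trends of the libraries with GC content and length, chosen after seeing the data, FLG stood at -1.31. FLG2 was still negative, and neither passed.

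**Figure D2:**
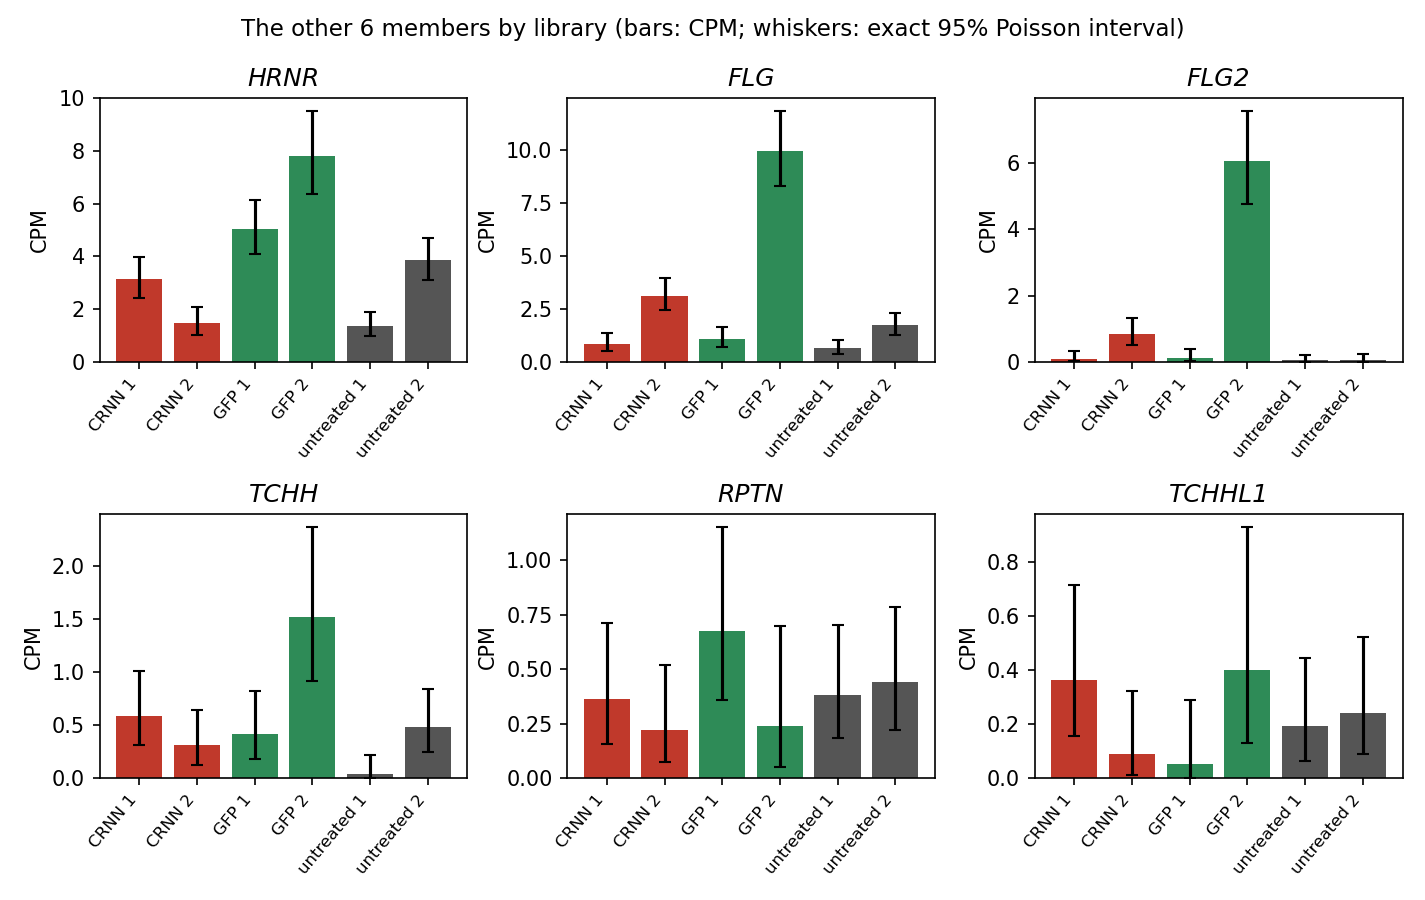
CPM of the 6 members other than CRNN in each library, as bars from 0 with exact 95% Poisson intervals; the number after the group is the replicate, and the scales differ between panels. FLG and FLG2 peak in GFP replicate 2 at 9.98 and 6.07 CPM, while HRNR is high in both GFP libraries at 5.04 and 7.82 CPM.

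The remaining 3 members were near the limit of detection. TCHH, which encodes trichohyalin of the hair follicle's inner root sheath, had 13 and 7 counts with the construct, 8 and 19 with the GFP vector, and 1 and 12 without transduction. It was highest in GFP replicate 2, at 1.52 CPM, and its log2 fold change was -1.03 in CRNN against GFP (95% interval -3.14 to 1.08). RPTN, which encodes the epidermal matrix protein repetin, had 8 and 5, 13 and 3, and 10 and 11 counts in the same order. Its level stayed between 0.223 and 0.675 CPM, with a log2 fold change of -0.70 in CRNN against GFP (95% interval -2.29 to 0.89). TCHHL1, a trichohyalin-like gene, had 8 and 2, 1 and 5, and 5 and 6 counts. No fold is given for it, since 2 groups hold libraries under the floor. For TCHH and RPTN a change within these intervals could not be told from none.

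**Figure D3:**
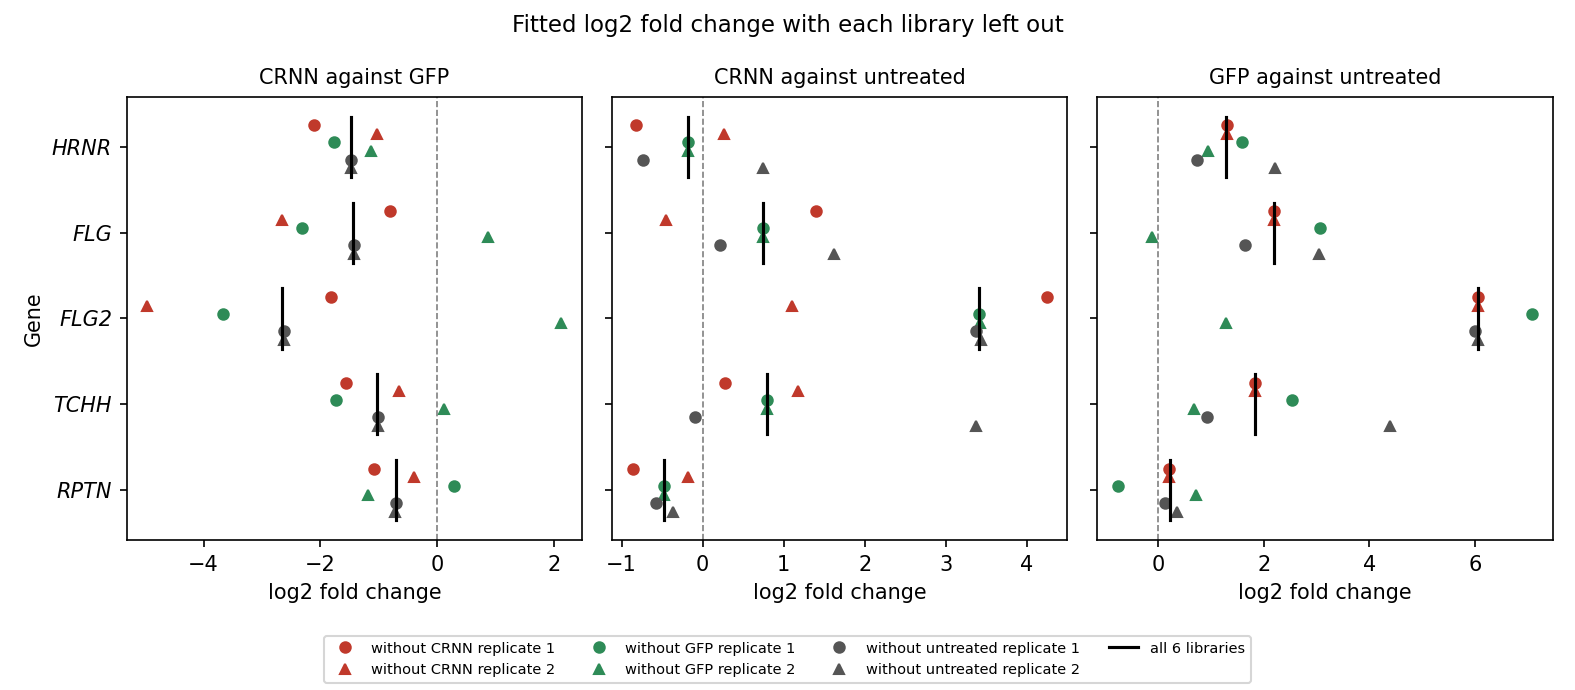
Log2 fold change of the 5 tested members other than CRNN in the 3 comparisons, with all 6 libraries (black bars) and with each library left out (colored markers). FLG in CRNN against GFP runs from -2.66 to 0.87 and FLG2 from -4.96 to 2.12, and HRNR stays between -2.12 and -1.03. The FLG2 values rest on libraries with 1 or 2 counts and give no size. The same holds for TCHH against untreated cells without untreated replicate 2, which leaves 1 count in that group.

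In untreated cells the order of levels per kb of exon was CRNN, HRNR, RPTN, FLG, TCHHL1, TCHH and FLG2. CRNN had 1.47 CPM per kb ± 0.533 (SD, n = 2), HRNR 0.271 ± 0.181 (SD, n = 2) and RPTN 0.115 ± 0.0116 (SD, n = 2). FLG had 0.0927 ± 0.0593 (SD, n = 2), TCHHL1 0.0598 ± 0.00965 (SD, n = 2) and TCHH 0.0371 ± 0.0448 (SD, n = 2). FLG2, with 1 count in each library, was listed at 0.00429. The lower CRNN library lay above the higher HRNR library, at 1.09 against 0.399. From HRNR to TCHH the libraries of each gene overlapped those of the next except at HRNR and RPTN, which were 0.143 and 0.123 at their closest.

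With the GFP vector the order began CRNN, HRNR, FLG and FLG2, at 1.48 CPM per kb ± 0.190 (SD, n = 2), 0.668 ± 0.204 (SD, n = 2), 0.433 ± 0.491 (SD, n = 2) and 0.338 ± 0.462 (SD, n = 2). The last 2 had spreads larger than their means. The length of the repeats bears on such levels. Of the windows of 100 bases in the longest coding transcript, 36.4% of HRNR and 15.4% of FLG occurred more than once in the same transcript, against 1.10% of TCHH, 0.997% of FLG2 and 0 of CRNN, RPTN and TCHHL1. No window was shared between members. How the counting treated reads with several positions is not given in the sources used here, so HRNR and FLG may be undercounted relative to the others.

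An antisense RNA, FLG-AS1, runs across HRNR, FLG, FLG2 and CRNN on the plus strand. FLG-AS1 counts were 8 and 6 with the construct, 6 and 5 with the GFP vector, and 5 and 5 without transduction. As CPM these were 0.363 and 0.267, then 0.312 and 0.399, then 0.191 and 0.200. The highest of the 6, GFP replicate 2, rests on 5 counts. The exons of FLG-AS1 in GENCODE 44 shared 1587 bases with those of FLG and 0 with those of CRNN, HRNR or FLG2. The kit marks strand, but the strand setting of the counting is not given in the sources used here, so FLG and FLG-AS1 reads may not be fully separated. The part of FLG-AS1 reads in the FLG counts was not tested.

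No tested gene around CRNN passed with it. Within 1000 kb on either side of its start, the table held 102 other genes, of which 25 had no count in any library and 31 were tested. The 31 gave no call in any comparison. Their median log2 fold change was -0.76 in CRNN against GFP, with 24 of 31 negative, 0.082 in CRNN against untreated cells, with 15 of 31 negative, and 0.39 in GFP against untreated cells, with 9 of 31 negative. Over all tested genes the medians were -0.0017, -0.0091 and -0.013. The 31 include the other tested family members and genes of the envelope and S100 lists below. These sets therefore overlap and are no separate evidence. On the side of FLG2 and FLG, the pseudogene HMGN3P1 had 0 counts throughout. On the other side LCE5A had 4 and 3, 2 and 0, and 3 and 6 counts in CRNN, GFP and untreated cells, and CRCT1 had 5 and 1, 22 and 1, and 5 and 1. LCE3E, the third on that side, had 1 and 3, 13 and 1, and 0 and 10. CRCT1 and LCE3E were thus highest in GFP replicate 1.

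**Figure D4:**
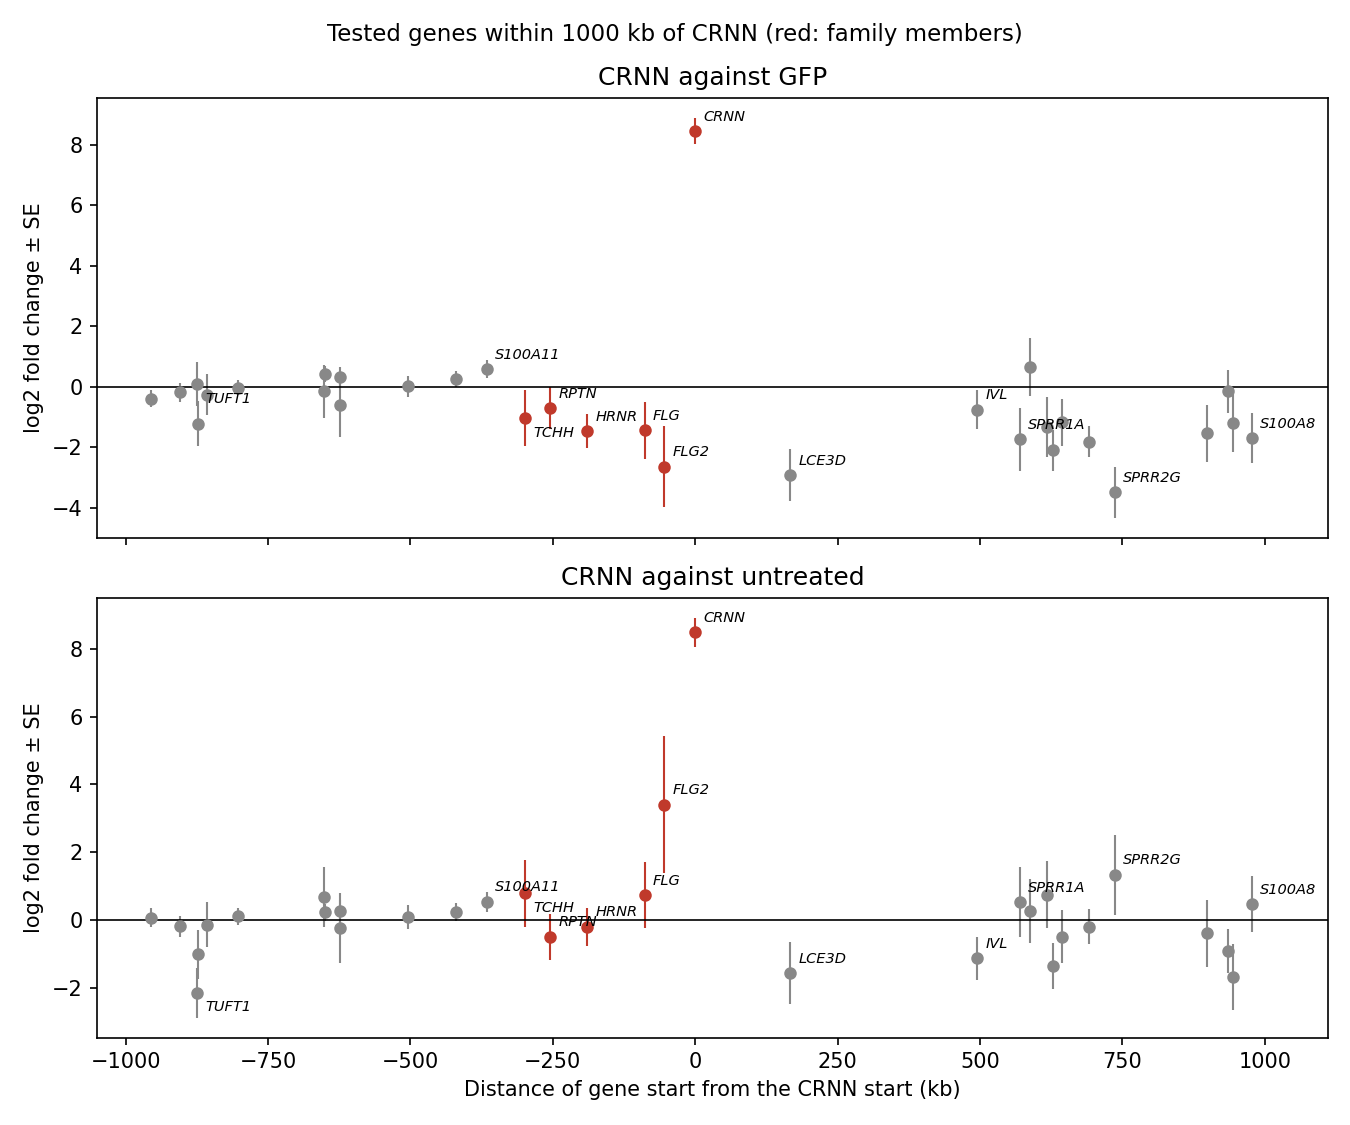
Log2 fold change (points, with SE) of the tested genes within 1000 kb of the CRNN start, by distance in kb, in CRNN against GFP (top) and CRNN against untreated cells (bottom); family members are red. CRNN stands at 8.46 and 8.47, and every other gene lies between -3.49 and 0.65 in the top panel and between -2.12 and 3.40 in the lower. The value of 3.40 is that of FLG2, which rests on libraries with 1 or 2 counts and gives no size.

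The envelope genes that are made beside the family were low and uneven. Of 18 late cornified envelope (LCE) genes 1 passed the filter, LCE3D. It had 3 and 1 counts in CRNN cells, 18 and 6 in GFP cells, and 4 and 10 in the untreated pair. Of 19 small proline-rich and other envelope genes 10 were tested and none passed. In CRNN against GFP 9 of the 10 were negative, with a median of -1.44 and 3 at an unadjusted p under 0.05, beside 49.9% positive among all tested genes. In CRNN against untreated cells 4 were positive and 6 negative, with a median of -0.28 and 0 at an unadjusted p under 0.05. In GFP against untreated cells 7 were positive, with a median of 0.97 and 2 at an unadjusted p under 0.05. SPRR2G was at 0.0907 and 0.223 CPM with the construct, 2.54 and 1.04 CPM with the GFP vector, and 0.115 and 0 CPM without transduction. SPRR2E had 1.22 and 0.847 CPM in CRNN, 4.99 and 2.31 in GFP, and 0.917 and 1.44 in the untreated pair. In both genes the GFP libraries lay above the 4 others. The genes named from a list, here and below, had its smallest p in CRNN against GFP, which favours a separation of these groups. Among all tested genes, 18.7% were lower in both CRNN libraries than in both GFP libraries. SPRR1A had 8.93 and 9.32 CPM in CRNN, 56.9 and 3.91 in GFP, and 1.87 and 10.6 in the untreated pair. The list's summed level was 146 CPM in GFP replicate 1 and between 18.3 and 36.9 CPM in the other 5 libraries, and its part in the median was not tested.

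Enzymes and scaffold proteins that handle the family's products were expressed, and none passed. Of 12 transglutaminases and scaffold genes 10 were tested, with a median of -0.64 in CRNN against GFP, 4 positive and 3 at an unadjusted p under 0.05. In CRNN against untreated cells the median was 0.12, with 6 positive and 0 at an unadjusted p under 0.05, and in GFP against untreated cells it was 0.19, with 6 positive and 2. EVPL and PPL encode envoplakin and periplakin, which start the envelope at the membrane. EVPL had 33.0 and 30.7 CPM in CRNN, 48.9 and 61.4 in GFP, and 26.6 and 31.0 in the untreated pair, so that GFP stood above both. PPL had 168 and 163 CPM in CRNN, 250 and 273 in GFP, and 224 and 208 in the untreated pair. SBSN, suprabasin, had 1.27 and 1.03 CPM in CRNN, 4.00 and 2.31 in GFP, and 0.535 and 0.560 in the untreated pair. Of 19 genes that process profilaggrin and trichohyalin 14 were tested, with 7 positive, 7 negative and a median of -0.046 in CRNN against GFP and 1 at an unadjusted p under 0.05. That gene was CTSH, the protease cathepsin H, with 106 and 124 CPM in CRNN, 75.5 and 75.3 in GFP, and 116 and 95.7 in the untreated pair. The median was -0.14 in CRNN against untreated cells, with 4 at an unadjusted p under 0.05, and -0.13 in GFP against untreated cells, with 3. SPINK5, an inhibitor of skin proteases, had 2.36 and 0.758, 2.80 and 2.55, and 1.34 and 1.56 CPM in the same order. FURIN, a proprotein convertase, had 49.9 and 46.4, 85.9 and 49.0, and 77.8 and 49.4 CPM. PADI1, a deiminase that converts arginine to citrulline, was the fourth by p in CRNN against GFP. It had 1.90 and 1.74 CPM in CRNN, 3.06 and 1.84 in GFP, and 3.86 and 4.32 in the untreated pair.

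The regulators of terminal differentiation did not pass either. Of 28 listed 25 were tested, 9 positive and 16 negative in CRNN against GFP, with a median of -0.13 and 2 at an unadjusted p under 0.05. Medians were 0.14 in CRNN against untreated cells, with 13 positive, and 0.13 in GFP against untreated cells, with 16 positive. RORA, a nuclear receptor, had 0.272 and 0.446 CPM in CRNN, 0.883 and 1.28 in GFP, and 0.344 and 0.721 in the untreated pair. ELF3, an epithelial ETS factor, had 107 and 121 CPM in CRNN, 35.3 and 84.2 in GFP, and 77.0 and 86.5 in the untreated pair. AHR, a ligand-activated factor known to raise FLG in keratinocytes, had 235 and 296 CPM in CRNN, 74.8 and 238 in GFP, and 238 and 237 in the untreated pair. AHR was thus lowest in GFP replicate 1.

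Genes of the mucosal squamous programme in which CRNN is usually found were mixed. Of 25 listed 14 were tested, 6 positive and 8 negative in CRNN against GFP, with a median of -0.47. Set against untreated cells, the CRNN group had 9 positive and 5 negative, with a median of 0.090, and in GFP against untreated cells 8 were positive, with a median of 0.39. None passed, and in the same order 2, 1 and 4 had an unadjusted p under 0.05. KRT13 and KRT4 are the keratin pair of mucosal suprabasal cells. KRT13 had 109 and 116 CPM in CRNN, 52.1 and 43.3 in GFP, and 78.2 and 184 in the untreated pair, and KRT4 had 67.4 and 50.7, 38.3 and 5.27, and 80.8 and 56.8. Both were higher in the CRNN libraries than in both GFP libraries, as were 19.4% of tested genes, and overlapped with untreated cells. LYPD3, a surface protein of suprabasal cells, had 12.6 and 12.7 CPM in CRNN and 22.8 and 17.9 CPM in GFP, with a log2 fold change of -0.69 (SE 0.27) in that comparison and -0.017 in CRNN against untreated cells.

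The 16 S100 genes of the same region, which encode the free-standing relatives of the family's amino-terminal domain, had 13 tested members and none passed. The median was 0.24 in CRNN against GFP, with 8 positive, -0.039 in CRNN against untreated cells, with 6, and -0.44 in GFP against untreated cells, with 3. S100A2, the highest of those named, had 704 and 791 CPM in CRNN, 383 and 322 in GFP, and 1020 and 516 in the untreated pair. S100A7 had 3.76 and 3.57, 24.1 and 3.59, and 2.71 and 0.841 CPM. S100A8 had 9.84 and 9.98 CPM in CRNN, 59.4 and 4.79 in GFP, and 6.38 and 7.89 in the untreated pair. The high value of both lay in GFP replicate 1.

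Among 4195 tested genes with a mean of at least 1 log2 CPM and a range of at least 1, a few had a pattern close to CRNN over the 6 libraries. As the libraries form a high pair and a low set of 4, the correlation mostly measures that division and is given as a description. The highest Pearson r of log2 CPM was 0.997, for ENSG00000269640.1, which has no name in the annotation used and had 7.84 and 7.71 CPM in CRNN and between 3.80 and 4.32 elsewhere. STAT2 (r = 0.957), a factor of interferon signalling, had 222 and 216 CPM in CRNN and between 110 and 139 elsewhere. TMEM229B (r = 0.956), TUBAP2 (r = 0.939) and C1orf21 (r = 0.937) followed. The lowest r was -0.978, for the long noncoding RNA MIR1915HG, with 2.54 and 2.45 CPM in CRNN and between 5.19 and 6.61 elsewhere. OXTR (r = -0.941), ZNF407 (r = -0.934), SLC7A11 (r = -0.933) and MARCHF1 (r = -0.922) came next. None of these 10 genes passed in any comparison (smallest edgeR adjusted p = 0.597, for TMEM229B in CRNN against GFP).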

How the data were processed

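The authors deposited counts, that is raw reads per versioned Ensembl gene, from paired-end stranded total RNA libraries of 6 samples. Per the submitters' processing notes, the tools were STAR 2.6, HTSeq 0.6.1, FastQC 0.11.7, bcl2fastq and edgeR, with several builds named; the annotation, strand setting and treatment of multiply mapped reads are not given in the sources used here. Names, positions and exon lengths came from GENCODE 44 by identifier without version (51996 of 57820 matched).

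edgeR's filterByExpr kept 16396 genes. All 6 libraries were fitted together (edgeR 4.0.16, R 4.3.3, TMM, quasi-likelihood F test, two-sided, Benjamini-Hochberg over all tested genes, threshold 0.05). The SE is the log2 fold change divided by the square root of F. P-values set a difference against the spread between biological replicates as labelled, which was estimated over all groups together and moderated across genes. The procedure was tested on simulated data, where it missed most of the smallest changes put in and recovered the largest, so that a gene that did not pass may still have changed. Changes were put only into genes above a set mean level, and all genes were given the same spread. The recovery of large changes therefore does not extend to members near the floor or with a wide spread. Alternatives were RLE or no scaling factors, no filter, 1 CPM in 2 libraries, DESeq2 1.42.0, limma-voom 3.58.1, only the 2 groups compared, a replicate block and each library left out. A correction for GC content and length was added after seeing the data. Members and lists were chosen with earlier results of these data known. Named genes are the members, overlapping genes, the 3 nearest to CRNN on each side, up to 4 per list with the smallest p in CRNN against GFP, and the 5 most and least like CRNN. One endothelial marker was not analysed here.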

Additional observations from a re-analysis of the deposited data

How the results depend on the processing

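CRNN kept its direction and its call against GFP and against untreated cells under every alternative run, except that without either GFP library it did not pass over GFP; leaving out libraries gave 8.34 to 8.60 over GFP and 8.15 to 8.90 over untreated cells. Between the controls its log2 fold change of 0.011 turned to -0.042 with no filter and ran from -0.30 to 0.44 with libraries left out, never passing. Numbers of genes called moved far more. In CRNN against GFP, 3 genes became 34 with no filter, 21 by DESeq2, 13 with only the 2 groups compared and 1 after the GC and length correction, and 0 to 13 with libraries left out. In CRNN against untreated cells, 1 became 152 with no filter, 7 by DESeq2 and 1 to 825 with libraries left out. In GFP against untreated cells, 0 became 195, 29 and 0 to 823. The cause was not tested.

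For the other 5 tested members no alternative on all libraries changed a direction. Ranges with libraries left out that crossed 0 were, for FLG, -2.66 to 0.87 (CRNN against GFP), -0.46 to 1.62 (CRNN against untreated) and -0.12 to 3.07 (GFP against untreated); for FLG2, -4.96 to 2.12 (CRNN against GFP); for HRNR, -0.82 to 0.75 (CRNN against untreated); for RPTN, -1.19 to 0.28 (CRNN against GFP) and -0.76 to 0.71 (GFP against untreated); and for TCHH, -1.74 to 0.11 (CRNN against GFP) and -0.093 to 3.37 (CRNN against untreated). The FLG2 range rests on libraries with 1 or 2 counts and gives no size. The upper end for TCHH against untreated cells is the fit without untreated replicate 2. It rests on the 1 count of untreated replicate 1 and gives no size either. DESeq2 gave no adjusted p for RPTN in 2 comparisons and TCHH in 1.

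Replicate numbers are shared between groups. The differences between replicates 2 and 1 correlated at 0.26 between CRNN and GFP, 0.19 between untreated and GFP and -0.071 between untreated and CRNN (11729 genes), so the libraries were treated as sharing only a number. With the replicate block CRNN stood at 8.48 over GFP and 8.51 over untreated cells, at 0.024 between the controls, and the numbers of genes called were 4, 1 and 0.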
